A study of Mus musculus with 12 samples.

Results

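Foxc2, Foxc1, Hlf, Islr, Krtap17-1, Rab37, Pcp4 and Ddn are 8 genes brought together around Foxc2 because most of them were much higher in doxycycline-treated than in untreated Dmrt5-inducible mouse cells. Every probe set whose only gene symbol in the platform annotation is one of these 8 was taken, which gave 8 of 18193 genes and 11 of 45037 probe sets outside the array's controls. Foxc1, Rab37 and Hlf have 2 probe sets each, and the other genes have 1. The genes were chosen by the difference between arrays labelled +Dox and -Dox in rtTA-Dmrt5 cells, so all values from rtTA-Dmrt5 arrays are given for these genes as a description with no test. The question asked of each gene was whether the arrays labelled +Dox lay above the parental line or those labelled -Dox lay below it.

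Mouse embryonic stem cells were differentiated as a monolayer in N2B27 medium, a serum-free medium that favours neural fate, with 12 samples hybridised to Affymetrix expression arrays. The rtTA-Dmrt5 line carries a Dmrt5 transgene that doxycycline (Dox) switches on through the rtTA activator, and the rtTA line is its parent; the transgene's gene, listed on the array as Dmrta2, encodes a transcription factor of the developing cortex and midbrain. The groups of 2 arrays were rtTA-Dmrt5 at day 9 with Dox and without, rtTA-Dmrt5 at day 7 with Dox and without, and rtTA at day 7 with Dox and without. Dox was added at day 5 where it was given. All groups share the rtTA activator, the labels do not say how many clones the inducible line represents, and the parent has arrays at day 7 alone. Whether replicates came from separate cultures is not in the labels, so the spread and the p-values may be technical.

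Each deposited value is the log2 difference of a probe set from its own median over the 12 arrays. It can be compared between arrays but gives no expression level, so no gene's level is set against another's. The numerical spacing of the values shows in which range the median log2 level of a probe set lay, and all 12 measured neural progenitor markers, among them Sox1, Sox2 and Nes, had a median of at least 8. The probe set of Dmrta2, the gene of the transgene, lay at -1.07 and -1.92 in rtTA-Dmrt5 day 9 arrays labelled +Dox, against 1.07 and 1.16 in those labelled -Dox. At day 7 it lay at -0.14 and -0.95 in arrays labelled +Dox, against 1.91 and 1.85 in those labelled -Dox. Parental arrays lay at 0.41 and -0.28 with Dox, against -0.22 and 0.14 without. At day 7 the rtTA-Dmrt5 arrays labelled -Dox exceeded the parental ones by 1.92 ± 0.33 (SE, adjusted p = 0.00323 in limma), and those labelled +Dox differed from them by -0.61 ± 0.33 (SE, adjusted p = 0.287 in limma). The labelled induction therefore does not show in this probe set, and whether it detects the transgene's transcript was not tested; every direction below rests on the labels, so arrays are called by their labelled treatment.

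Foxc2 and Foxc1 are closely related forkhead transcription factors that act in paraxial mesoderm, in mesenchyme of the head and meninges, and in blood and lymph vessels. Neither is a classical gene of neural progenitors. Hlf is a PAR-type basic leucine zipper factor that binds D-box elements and belongs to a family with daily rhythms in many tissues. Islr (Meflin) is a leucine-rich repeat protein of mesenchymal stromal cells, Krtap17-1 a keratin-associated protein of the hair shaft, and Rab37 a Rab GTPase of secretory granules. Pcp4 is a small regulator of calmodulin that is abundant in Purkinje cells, and Ddn (dendrin) is a protein of dendrites and of kidney podocytes.

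The 8 genes did not share a single pattern. Krtap17-1, Islr, Rab37 and Hlf lay above the parental line in the day 7 arrays labelled +Dox and near it in those labelled -Dox. At day 7 Foxc2 and Pcp4 did the reverse, near the parental line in arrays labelled +Dox and far below it in those labelled -Dox. Ddn lay above the parental line in both. Foxc1 was not higher in arrays labelled +Dox at day 7 in either probe set. Of the 11 probe sets, 2 were further from the parental line without Dox than with it, those of Foxc2 and Pcp4. The same held for 48 of the 176 probe sets (27.3%) that were at least 2-fold higher in arrays labelled +Dox at day 7 with adjusted p of at most 0.05 in limma, and for 54.5% of all probe sets tested.

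**Figure D1:**
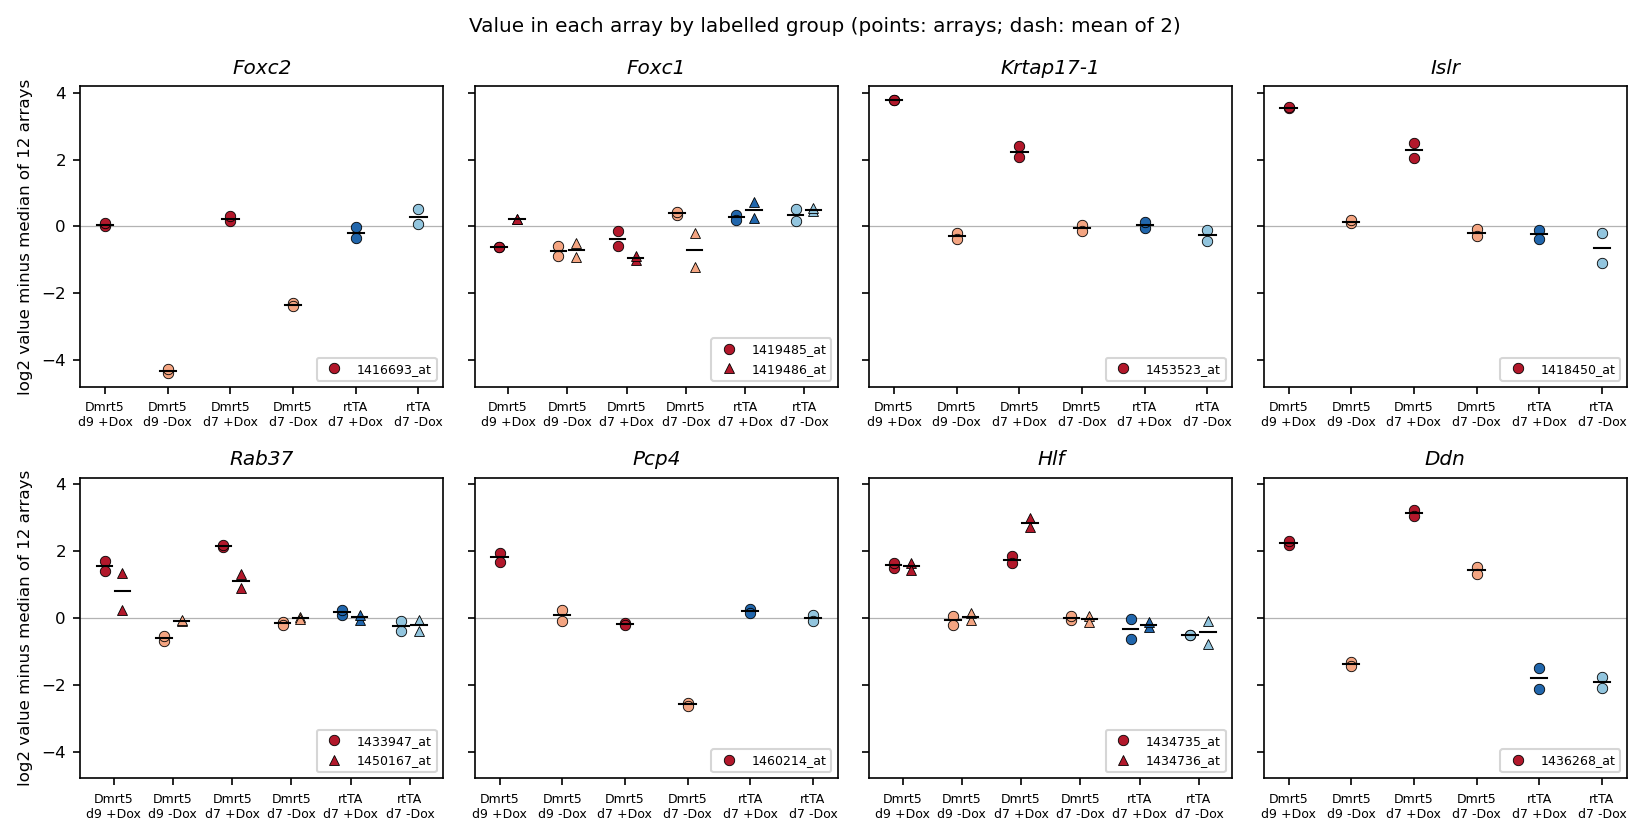
Value of each member probe set in each of the 12 arrays (y axis, log2 value minus the median of the 12 arrays), by labelled group (x axis; Dmrt5 stands for the rtTA-Dmrt5 line, d7 and d9 for day 7 and day 9). Points are arrays, short lines the mean of 2, and circles and triangles the probe sets of a gene. Foxc2 and Pcp4 are low in some arrays labelled -Dox, Krtap17-1 and Islr are high in arrays labelled +Dox, and the probe sets of Foxc1 stay between -1.23 and 0.74.

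Foxc2 was measured by probe set 1416693_at, with a median log2 level between 4 and 8. Its values were 0.01 and 0.09 in rtTA-Dmrt5 day 9 arrays labelled +Dox, against -4.39 and -4.27 in those labelled -Dox. At day 7 they were 0.17 and 0.30 in arrays labelled +Dox, against -2.30 and -2.40 in those labelled -Dox. The parental arrays gave -0.01 and -0.36 with the label +Dox, against 0.07 and 0.51 with the label -Dox. All 4 rtTA-Dmrt5 arrays labelled +Dox and all 4 parental arrays thus lay between -0.36 and 0.51, and the 4 rtTA-Dmrt5 arrays labelled -Dox stood apart below them. The fitted difference between arrays labelled +Dox and -Dox was 4.38 at day 9 (20.8-fold) and 2.58 at day 7 (5.99-fold), each with a standard error (SE) of 0.16 from limma (n = 2 arrays a group, as in all differences below). With a median under 8, the day 9 arrays labelled -Dox lay below a log2 level of 4, so the day 9 fold rests on dim values. Set against the parental line at day 7, arrays labelled +Dox differed by 0.42 ± 0.16 (SE) and those labelled -Dox by -2.64 ± 0.16 (SE). Day 9 differed from day 7 by -0.18 ± 0.16 (SE) in arrays labelled +Dox and by -1.98 ± 0.16 (SE) in those labelled -Dox, and the second value became -1.02 with quantile normalization repeated. In these mixed cultures, fewer cells that express a gene and less RNA in each cell cannot be told apart.

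Foxc1 did not follow its relative, and its label as a Dox-induced gene does not hold at day 7. Probe set 1419485_at lay at -0.15 and -0.59 in day 7 arrays labelled +Dox, against 0.35 and 0.43 in those labelled -Dox, a difference of -0.76 ± 0.17 (SE). Probe set 1419486_at lay at -1.02 and -0.88 in day 7 arrays labelled +Dox, against -0.21 and -1.23 in those labelled -Dox, and these overlap. At day 9 the second probe set lay at 0.22 and 0.21 in arrays labelled +Dox, against -0.91 and -0.48 in those labelled -Dox (0.91 ± 0.29, SE). The first lay at -0.61 and -0.60 in day 9 arrays labelled +Dox, against -0.89 and -0.60 in those labelled -Dox, and hardly differed (0.13 ± 0.17, SE). The 2 probe sets therefore disagree, with a Pearson correlation of 0.34 over the 12 arrays, and the mean of both gives -0.49 at day 7 and 0.52 at day 9. The sign of the day 7 difference of 1419486_at rests on 1 array: without replicate 1 of the arrays labelled -Dox it was 0.28, against -0.23 ± 0.29 (SE) with it, and repeated quantile normalization gave 0.09. Parental arrays lay between 0.15 and 0.74 in both probe sets, and the arrays labelled +Dox of rtTA-Dmrt5 lay below them at day 7 by -0.64 ± 0.17 and -1.44 ± 0.29 (SE).

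Hlf was higher in arrays labelled +Dox in both of its probe sets. In 1434736_at the values were 1.65 and 1.45 in day 9 arrays labelled +Dox, against -0.07 and 0.14 in those labelled -Dox. At day 7 they were 2.98 and 2.72 in arrays labelled +Dox, against 0.07 and -0.12 in those labelled -Dox. Parental arrays lay at -0.28 and -0.11 with Dox and at -0.78 and -0.08 without, so only the rtTA-Dmrt5 arrays labelled +Dox stood apart in this probe set, by 3.05 ± 0.21 (SE) from the parental arrays labelled +Dox at day 7. This was the third highest Dox difference of all 45037 probe sets at day 7 (2.88 ± 0.21, SE), and it was smaller at day 9 (1.51 ± 0.21, SE). Probe set 1434735_at gave 1.65 ± 0.18 (SE) at day 9 and 1.75 ± 0.18 (SE) at day 7, so on the deposited scale the lower value at day 9 was seen in 1434736_at. With quantile normalization repeated, 1434735_at was lower at day 9 too (1.33, against 2.06 at day 7), and the 2 correlate at 0.94 over the 12 arrays.

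Islr and Krtap17-1, a stromal surface protein and a structural protein of hair, had nearly the same course, with a Pearson correlation of 0.97 over the 12 arrays. Islr lay at 3.54 and 3.57 in day 9 arrays labelled +Dox, against 0.09 and 0.20 in those labelled -Dox. At day 7 it lay at 2.50 and 2.06 in arrays labelled +Dox, against -0.09 and -0.29 in those labelled -Dox. Parental arrays gave -0.11 and -0.36 with Dox and -1.09 and -0.19 without, and 1 of the 2 arrays labelled -Dox was the lowest of all 12. The Dox difference of Islr was 3.41 ± 0.25 (SE, 10.6-fold) at day 9 and 2.47 ± 0.25 (SE) at day 7. Against the parental line at day 7, arrays labelled +Dox were higher by 2.51 ± 0.25 (SE), and those labelled -Dox overlapped with it (0.45 ± 0.25, SE).

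Krtap17-1 lay at 3.79 in each of the day 9 arrays labelled +Dox, against -0.21 and -0.38 in those labelled -Dox. At day 7 it lay at 2.07 and 2.40 in arrays labelled +Dox, against 0.05 and -0.14 in those labelled -Dox. Parental arrays gave -0.05 and 0.14 with Dox, against -0.42 and -0.11 without. The 8 arrays other than the rtTA-Dmrt5 arrays labelled +Dox all lay between -0.42 and 0.14. The Dox difference was 4.08 ± 0.15 (SE, 16.9-fold) at day 9 and 2.28 ± 0.15 (SE) at day 7. In both genes arrays labelled +Dox were higher at day 9 than at day 7, by 1.55 ± 0.15 (SE) for Krtap17-1 and 1.27 ± 0.25 (SE) for Islr, while arrays labelled -Dox differed between the days by -0.25 ± 0.15 (SE) for Krtap17-1 and 0.33 ± 0.25 (SE) for Islr. Repeated quantile normalization made the day difference with Dox smaller, 0.94 for Krtap17-1 and 0.67 for Islr. The Krtap17-1 probe set was dim, with a median log2 level between 2 and 4, a range that held 34.9% of all probe sets.

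Rab37 was higher in arrays labelled +Dox at both days. In probe set 1433947_at the values were 1.70 and 1.41 in day 9 arrays labelled +Dox, against -0.68 and -0.53 in those labelled -Dox. At day 7 they were 2.11 and 2.18 in arrays labelled +Dox, against -0.11 and -0.21 in those labelled -Dox. Parental arrays lay at 0.09 and 0.25 with Dox, against -0.40 and -0.09 without. The Dox difference was 2.16 ± 0.14 (SE) at day 9 and 2.31 ± 0.14 (SE) at day 7, and arrays labelled +Dox exceeded the parental ones at day 7 by 1.98 ± 0.14 (SE). The second probe set, 1450167_at, is dim (median log2 level between 2 and 4), and its day 9 arrays labelled +Dox gave 1.36 and 0.25. Its day 9 difference of 0.88 ± 0.29 (SE) became 0.33 without replicate 1 of those arrays and 1.44 without replicate 2.

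Pcp4 had a course that none of the others had. At day 7 it lay at -0.14 and -0.22 in arrays labelled +Dox, against -2.53 and -2.64 in those labelled -Dox. At day 9 it lay at 1.94 and 1.69 in arrays labelled +Dox, against 0.24 and -0.08 in those labelled -Dox. Parental arrays gave 0.27 and 0.16 with Dox, against 0.08 and -0.09 without. The 2 day 7 arrays labelled -Dox thus lay far below all others, and the 2 day 9 arrays labelled +Dox lay above all others. The Dox difference was 1.74 ± 0.14 (SE) at day 9 and 2.41 ± 0.14 (SE) at day 7. Day 9 exceeded day 7 by 1.99 ± 0.14 (SE) in arrays labelled +Dox and by 2.66 ± 0.14 (SE) in those labelled -Dox. Repeating quantile normalization on the centred values changed the day 7 Dox difference to 4.11 and the day difference without Dox to 4.39, each over 1.5 times larger.

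Ddn differed between the lines in both treatments. It lay at 2.19 and 2.29 in day 9 arrays labelled +Dox, against -1.31 and -1.44 in those labelled -Dox. At day 7 it lay at 3.24 and 3.04 in arrays labelled +Dox, against 1.53 and 1.31 in those labelled -Dox. Parental arrays gave -2.12 and -1.49 with Dox, against -2.10 and -1.77 without. At day 7 the rtTA-Dmrt5 arrays labelled +Dox exceeded the parental ones by 4.95 ± 0.20 (SE, 30.8-fold), and those labelled -Dox did so by 3.35 ± 0.20 (SE, 10.2-fold). The Dox difference was 3.62 ± 0.20 (SE) at day 9 and 1.72 ± 0.20 (SE) at day 7. Day 9 differed from day 7 by -0.90 ± 0.20 (SE) in arrays labelled +Dox and by -2.80 ± 0.20 (SE) in those labelled -Dox, so the larger day 9 difference came with lower values in both treatments. With quantile normalization repeated the value with Dox was -1.49.

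**Figure D2:**
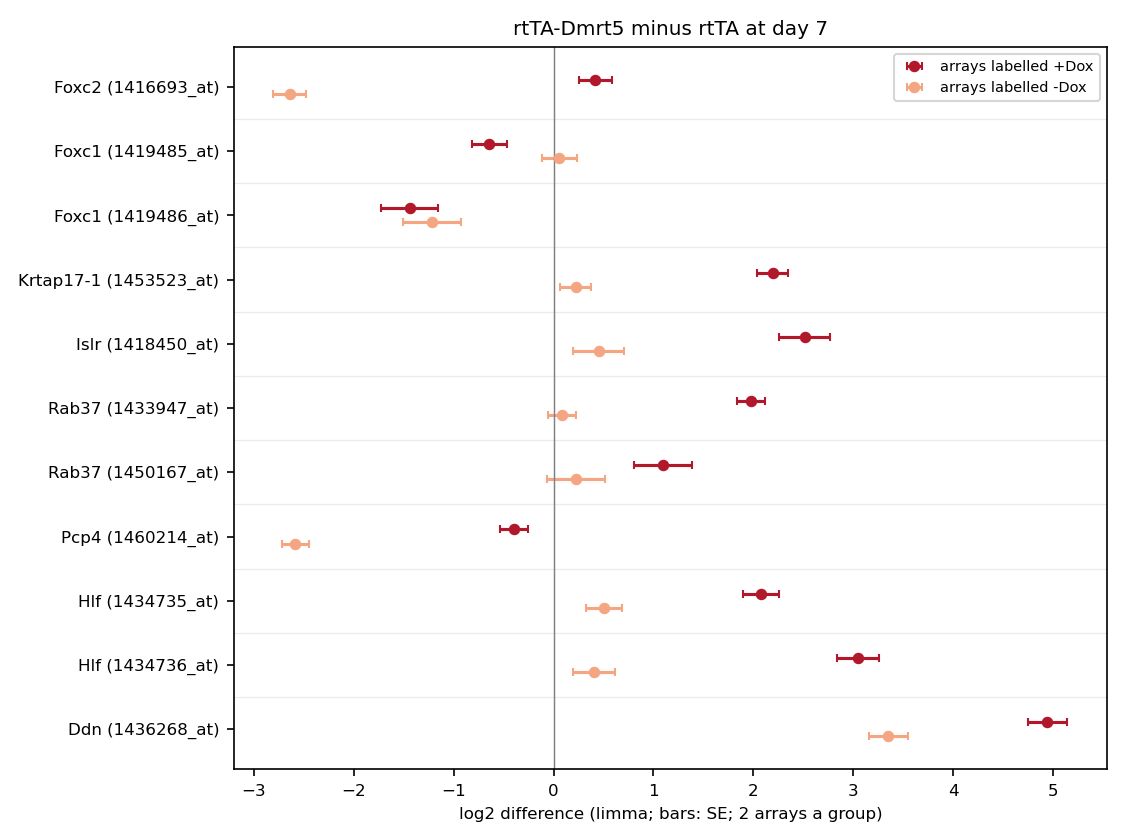
Difference between rtTA-Dmrt5 and rtTA at day 7 (x axis, log2, limma estimate with SE bars, 2 arrays a group) for each member probe set, in arrays labelled +Dox and in arrays labelled -Dox. Foxc2 and Pcp4 lie far left of 0 only in arrays labelled -Dox (-2.64 and -2.58), Krtap17-1, Islr, Rab37 and Hlf lie right of 0 by 1.10 to 3.05 in arrays labelled +Dox, and Ddn lies right of 0 in both.

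The promoters of 5 of the 8 genes were found in a RefSeq table, from 250 bases before to 50 bases after a start site. Those of Krtap17-1, Islr and Hlf, which lay above the parental line with Dox, are shown beside that of Pcp4, which at day 7 lay below it without Dox. Against the day 7 parental arrays of the same treatment, day 9 Pcp4 differed by 1.60 ± 0.14 (SE) with Dox and by 0.08 ± 0.14 (SE) without. The parent has no day 9 arrays, so these values mix line and day. The contrast between these genes is thus described at day 7 alone. In GRCm38.p6 they stand at chr11:99993945-99994244 (Krtap17-1, minus strand), chr9:58158505-58158804 (Islr, minus strand), chr11:90390868-90391167 (Hlf, minus strand) and chr16:96467356-96467655 (Pcp4, plus strand), and are written 5′ to 3′ along the gene. Capitals mark matches, on either strand, to TATAAA, the core of a TATA box, or to CCAAT.
Krtap17-1: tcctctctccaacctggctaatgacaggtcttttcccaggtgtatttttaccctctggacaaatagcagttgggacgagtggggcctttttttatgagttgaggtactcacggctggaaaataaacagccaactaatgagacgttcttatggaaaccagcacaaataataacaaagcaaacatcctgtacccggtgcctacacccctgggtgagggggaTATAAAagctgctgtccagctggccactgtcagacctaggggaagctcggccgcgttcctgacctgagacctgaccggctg
Islr: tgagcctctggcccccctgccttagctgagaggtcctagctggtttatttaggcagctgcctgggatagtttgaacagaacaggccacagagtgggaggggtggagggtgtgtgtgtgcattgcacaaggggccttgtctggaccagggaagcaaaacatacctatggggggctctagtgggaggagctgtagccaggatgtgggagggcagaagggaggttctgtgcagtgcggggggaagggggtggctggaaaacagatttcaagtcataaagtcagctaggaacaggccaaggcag
Hlf: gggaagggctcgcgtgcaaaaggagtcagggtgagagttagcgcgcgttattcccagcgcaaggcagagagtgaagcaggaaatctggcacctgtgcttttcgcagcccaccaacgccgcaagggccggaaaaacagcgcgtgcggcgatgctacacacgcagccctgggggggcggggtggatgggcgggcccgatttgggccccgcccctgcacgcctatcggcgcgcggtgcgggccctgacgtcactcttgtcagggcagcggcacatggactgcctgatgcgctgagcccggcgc
Pcp4: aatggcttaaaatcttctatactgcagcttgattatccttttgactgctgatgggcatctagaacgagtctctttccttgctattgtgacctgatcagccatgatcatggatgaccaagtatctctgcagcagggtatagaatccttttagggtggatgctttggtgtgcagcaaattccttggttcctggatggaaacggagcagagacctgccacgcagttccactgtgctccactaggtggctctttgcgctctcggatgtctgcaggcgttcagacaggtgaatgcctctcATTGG
Also searched on both strands were ACANTGT, the palindromic core bound by Dmrt factors, TGTTTAC, a forkhead core, and TTATGTAA, the D-box. None of these 3 strings occurs in these windows or in that of Foxc1, and they occur in 7.37%, 3.66% and 0.93% of 32544 distinct promoters of the table. Krtap17-1 holds TATAAA, which 13.6% of promoters hold, 31 bases before its start site. Pcp4 holds CCAAT on the opposite strand, which 37.4% of promoters hold on either strand, and Islr and Hlf hold neither. The GC content is 67.3% for Hlf, 57.0% for Islr, 50.7% for Krtap17-1 and 48.7% for Pcp4, against a median of 53.0% over all promoters. The matches overlap no other motif and are descriptions of letters.

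The parental line is the only Dox comparison whose arrays had no part in choosing the members. None of the 11 probe sets passed adjusted p 0.05 in limma, where 0% of 45037 probe sets passed. At an unadjusted p under 0.05, limma gave 2 of 11 member probe sets and 2323 of all. These were Foxc2, lower by 0.48 in arrays labelled +Dox (SE 0.16, adjusted p = 0.947), and Rab37 in 1433947_at, higher by 0.42 (SE 0.14, adjusted p = 0.947). The other 9 differences ran from -0.06 to 0.40. In simulated data of this comparison, 56 of 100 probe sets changed by a log2 size of 1 were called, and 4 of 100 changed by 0.5, so changes of the size seen here are mostly missed with 2 arrays a group. Parental arrays labelled +Dox did not overlap with those labelled -Dox in 4 of 11 member probe sets, and the same held for 33.2% of all probe sets. Foxc2 lay below, as did 16.3% of all, and Krtap17-1, Pcp4 and 1433947_at of Rab37 lay above, as did 16.9% of all.

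**Figure D3:**
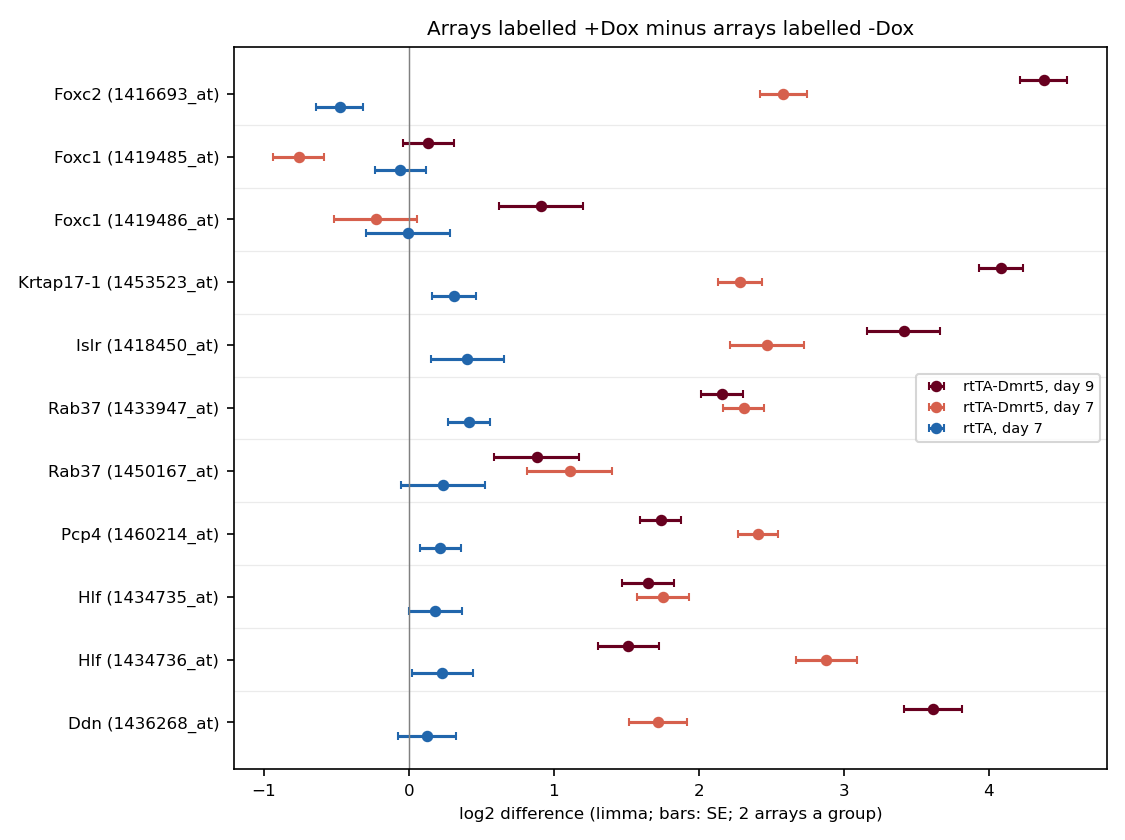
Difference between arrays labelled +Dox and -Dox (x axis, log2, limma estimate with SE bars, 2 arrays a group) for each member probe set in rtTA-Dmrt5 at day 9, rtTA-Dmrt5 at day 7 and rtTA at day 7. Parental differences lie between -0.48 and 0.42, and those of Foxc1 in rtTA-Dmrt5 between -0.76 and 0.91.

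Some array controls differed between groups, and their part in the members' values was not tested. The 18 hybridisation spike-in probe sets averaged -0.72 ± 0.09 (SD, n = 2) in rtTA-Dmrt5 day 9 arrays labelled +Dox and 0.09 ± 0.11 (SD, n = 2) in those labelled -Dox. At day 7 they averaged -0.18 ± 0.23 (SD, n = 2) in rtTA-Dmrt5 arrays labelled +Dox and 0.14 ± 0.07 (SD, n = 2) in those labelled -Dox. Parental arrays gave -0.15 ± 0.11 (SD, n = 2) with Dox and 0.13 ± 0.08 (SD, n = 2) without. The spike-in mean was thus lower with the label +Dox in each pair of groups. The 3' minus 5' value of the Actb controls, which follows RNA integrity, was 0.21 ± 0.02 (SD, n = 2) in day 9 arrays labelled +Dox and -0.02 ± 0.04 (SD, n = 2) in those labelled -Dox. Between the lines it differed at day 7. It was -0.04 ± 0.13 (SD, n = 2) in rtTA-Dmrt5 and -0.22 ± 0.03 (SD, n = 2) in rtTA arrays labelled +Dox, and 0.06 ± 0.01 (SD, n = 2) in rtTA-Dmrt5 and -0.32 ± 0.06 (SD, n = 2) in rtTA arrays labelled -Dox. At day 9 the 24 polyA control probe sets averaged -0.03 ± 0.01 (SD, n = 2) in arrays labelled +Dox and 0.02 ± 0.07 (SD, n = 2) in those labelled -Dox. Without any 1 of the 4 day 9 arrays, the day 9 differences of Foxc2, Krtap17-1, Islr and Ddn stayed at 3.36 or more. Both day 9 arrays labelled +Dox share the control shift, so leaving out 1 array cannot show its part. With quantile normalization repeated, the differences were 4.39 (Foxc2), 3.74 (Krtap17-1), 3.05 (Islr) and 3.62 (Ddn).

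In correlation among themselves, some members had similar courses and 3 did not share them. Over the 12 arrays, Krtap17-1, Islr, Rab37 and Hlf correlated with each other at 0.85 to 0.97, and Ddn with these 4 at 0.77 to 0.88. Foxc2 correlated with every other member at 0.23 to 0.55, and Foxc1 with Krtap17-1, Islr, Rab37, Hlf and Ddn at -0.55 to -0.28. Each gene entered as the mean of its probe sets, and those of Foxc1 disagree, so its coefficients belong to neither alone. Pcp4 correlated with Krtap17-1 at 0.59, Islr at 0.58, Rab37 at 0.39, Hlf at 0.34, Foxc1 at 0.02 and Ddn at -0.03. The arrays share 6 groups and 1 platform, so these coefficients describe group patterns and come with no p. The members were also chosen by values from these same arrays, so likeness among them partly follows from that choice. The closest of all other genes came nearer still, Kcnk16 to Krtap17-1 and Maf to Islr (each 0.99).

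The genes whose course over the 12 arrays was most like a member's were listed by Pearson correlation, which ignores the size of change. For Foxc2 they were Ttc27 (0.99), Tomm70a (0.98), Utp4 (0.98), Dnajc3 (0.98) and Chek2 (0.98), whose Dox differences were only 0.38 to 0.57 at day 7. For Foxc1 they were Sdcbp (0.98), Stx2 (0.95) and Nhej1 (0.94), matched to the mean of its probe sets, which disagree. Krtap17-1 was most like Kcnk16, Ets2 and Mbd2 (0.99, 0.99 and 0.98), and Islr most like Maf, Foxa2 and Enpp4 (0.99, 0.98 and 0.98). Maf came close to Islr in size as well, with Dox differences of 2.54 at day 9 and 1.84 at day 7. Hlf was most like Prdm16, Pappa and Nr5a1 (0.98, 0.97 and 0.97), and Rab37 most like C130026L21Rik, Atad3a and Gng13 (0.98, 0.96 and 0.96). Pcp4 was most like Cbln1, Celrr and Nupr1 (0.99, 0.95 and 0.95); Cbln1 encodes a secreted synapse organiser of cerebellar granule cells and was lower than in the parental line by 1.15 in day 7 arrays labelled -Dox. Ddn was most like Dusp9, Stard8 and Podxl (each 0.98), and Podxl encodes podocalyxin, a surface protein of podocytes, which also contain dendrin.

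Genome neighbours were compared next, taking the 3 nearest measured protein-coding genes on each side of each member in the RefSeq table, 48 in all. In rtTA-Dmrt5 at day 7, 5 of 48 rose and 1 fell with adjusted p of at most 0.05 in limma, against 6.94% of all genes called (3.08% higher and 3.85% lower). At day 9, 12 rose and 4 fell, against 28.2% of all genes called (16.9% higher and 11.3% lower). The neighbour with the largest rise at day 7 was Wnt1, which lies next to Ddn and encodes a secreted signal of the midbrain-hindbrain boundary (2.40 at day 9 and 2.83 at day 7). Wnt1 also exceeded the parental line at day 7, by 4.02 in arrays labelled +Dox and by 0.86 in those labelled -Dox, where Ddn did so by 4.95 and 3.35. Stra6, next to Islr and encoding a retinol transporter, rose by 1.85 at day 9 and 1.03 at day 7. Islr2, the paralogue of Islr on its other side, fell by 0.67 at day 9.

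The forkhead genes near Foxc2, Foxf1 and Foxl1 on opposite sides of it, gave -0.27 and -0.04 at day 9 and -0.06 and 0.11 at day 7, and none of these passed. Near Foxc1, Foxq1 rose by 1.26 at day 9 and Foxf2 did not pass (0.14). Keratin and keratin-associated genes beside Krtap17-1 did not pass at either day, at -0.42 to 0.02. In the parental Dox response 0 of 48 neighbours passed in limma, as did 0 of 18193 genes. An unadjusted p under 0.05 in limma was found for 0 of 48 neighbours and for 929 of all 18193 genes.

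**Figure D4:**
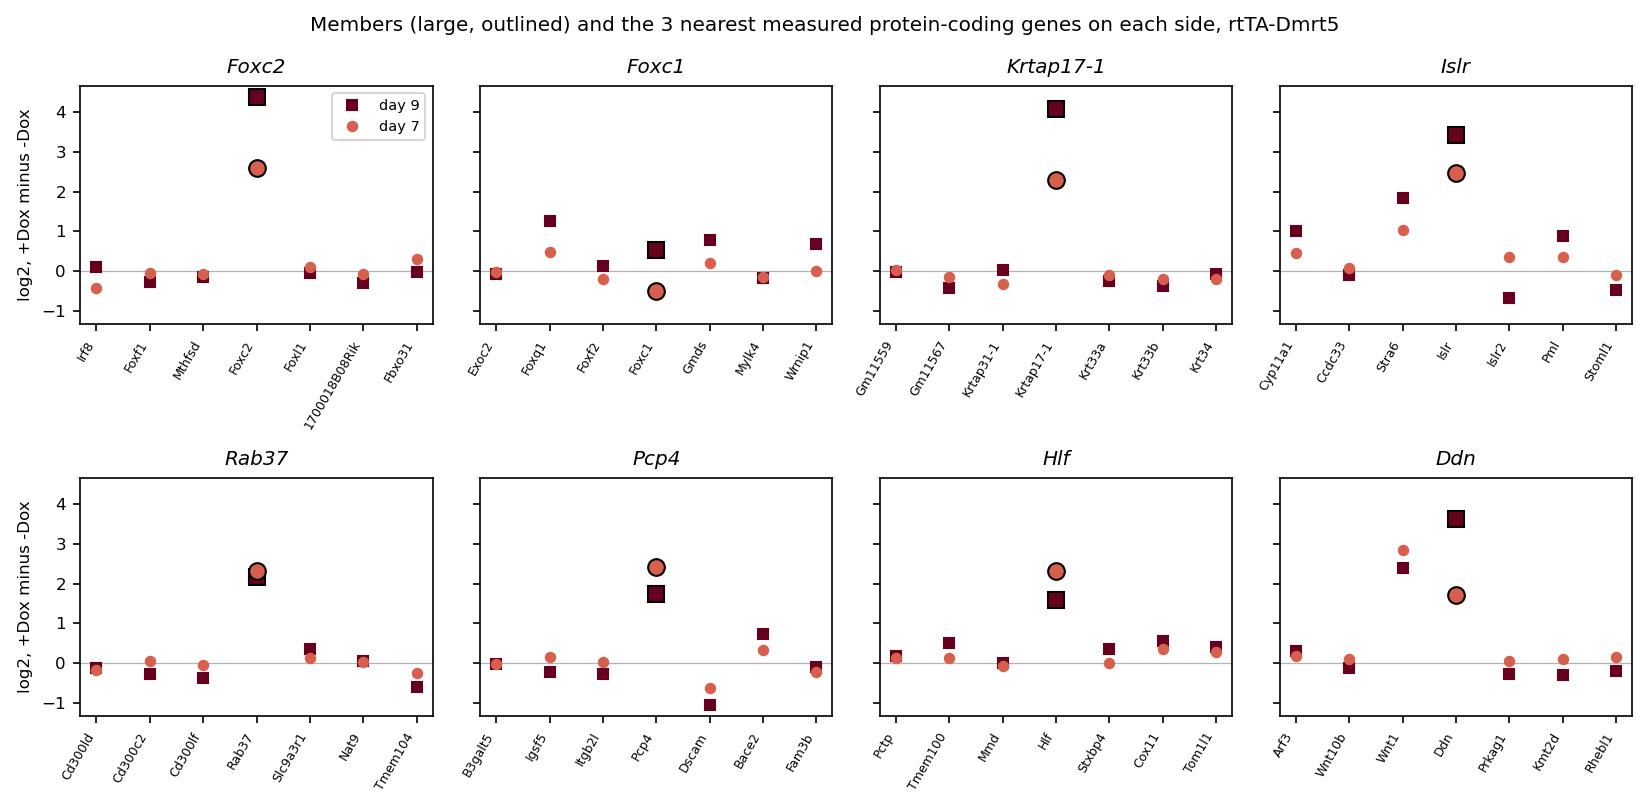
Dox difference (y axis, log2, arrays labelled +Dox minus -Dox, gene values) in rtTA-Dmrt5 at day 9 and day 7 for each member (large outlined marks) and its 3 nearest measured protein-coding neighbours on each side (x axis, in genome order). Wnt1 beside Ddn (2.40 and 2.83) and Stra6 beside Islr (1.85 and 1.03) are the highest neighbours, and those of Foxc2, Krtap17-1 and Rab37 lie between -0.59 and 0.37.

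Lists of related genes, with the 8 members left out, were counted in the Dox response of rtTA-Dmrt5. The shares over all genes were 16.9% higher and 11.3% lower at day 9, and 3.08% higher and 3.85% lower at day 7. Of the 35 other forkhead genes measured, 10 rose and 3 fell at day 9 and 2 rose and 3 fell at day 7 in arrays labelled +Dox. Foxa2, a floor plate factor, rose by 1.74 at day 9 and 1.25 at day 7, Foxd1 rose by 1.62 and Foxo1 by 1.03 at day 9, and Foxn4, a factor of interneuron and retinal progenitors, fell by 3.37 at day 9 and by 2.23 at day 7. The median over the family was 0.07 at day 9 and 0.06 at day 7, against 0.01 for all genes at both days. Among 20 measured genes that depend on Foxc factors or act with them in mesoderm, 7 rose and 3 fell at day 9 and 5 rose and 1 fell at day 7. Bmp7, a Bmp ligand (1.27 at day 9, 1.18 at day 7), Eya1, a transcriptional co-activator (1.75 at day 9, 0.85 at day 7), and Ihh, a hedgehog ligand (1.39 at day 9, 0.89 at day 7), rose at both days. The nuclear receptor Nr2f2 fell by 1.68 at day 9 and by 1.38 at day 7. The counts at day 7, where 6.94% of all genes were called, are unstable. The same holds over all genes, of which fewer were called when 1 of the day 7 rtTA-Dmrt5 arrays was left out. Over all lists 44 of 221 genes passed, but 21 when replicate 1 of the day 7 arrays labelled +Dox was left out and 19 when replicate 2 was. Leaving out day 7 arrays labelled -Dox gave 23 for replicate 1 and 20 for replicate 2.

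Relatives of the other members were counted in the same way. They stand against 16.9% of all genes higher and 11.3% lower at day 9, and 3.08% higher and 3.85% lower at day 7. Of 17 PAR-type and clock genes beside Hlf, 2 rose and 2 fell at day 9 and 1 rose at day 7. The clock repressor Nr1d2 rose by 0.94 at day 9 and 0.58 at day 7, Arntl rose by 1.04 at day 9, and the closest relative with a call, Tef, fell by 0.29 at day 9; with all its probe sets averaged Tef gave 0.09. Of 19 secretory Rab GTPases and effectors, 2 rose and 6 fell at day 9 and 2 fell at day 7, led at day 9 by Rab3c (-1.19) and Rab3a (-0.85), Rabs of synaptic vesicles. Rab27b, a Rab of secretory granules, rose by 0.59 at day 9. Of 13 calmodulin-binding and Purkinje cell genes, 2 rose and 4 fell at day 9 and 2 fell at day 7. Pcp4l1, the paralogue of Pcp4, fell by 1.24 at day 7, and Calb1, a calcium buffer of Purkinje cells, fell by 2.36 at day 9. Of 17 keratin-associated and hair keratin genes, 1 rose and 1 fell at day 9 and 1 rose at day 7; the riser was Krt31 (0.59 at day 9, 0.52 at day 7). Of 18 Islr relatives and leucine-rich repeat matrix genes, 5 rose and 1 fell at day 9 and 2 rose and 2 fell at day 7. Prelp, a matrix proteoglycan, rose by 2.18 at day 9 and 1.02 at day 7, Lrrc4 by 1.54 at day 9 and 0.95 at day 7, and Fmod by 1.36 at day 9. In the parental Dox response, 0 of 221 list genes passed in limma, as did 0% of all genes. An unadjusted p under 0.05 in limma was found for 15 of the 221 and for 929 of all 18193 genes.

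Markers of cell types in which these genes are known were examined beside them. Again 16.9% of all genes were higher and 11.3% lower at day 9, and 3.08% higher and 3.85% lower at day 7. Of 19 mesenchyme and meninges genes, 4 rose and 1 fell at day 9 and 2 rose and 4 fell at day 7. Slc6a13, a transporter gene of the meninges, rose by 1.11 at day 9 and 1.15 at day 7, and Prrx1, a mesenchymal homeobox gene, rose by 1.03 at day 7. The collagen genes Col3a1 (-1.44 at day 9, -2.79 at day 7) and Col1a2 (-1.15 at day 7) fell. The stromal markers Dcn and Lum had median log2 levels between 2 and 4 and did not pass. The list's mean lay between 0.04 and 0.19 in day 9 arrays labelled +Dox, against -0.15 and -0.14 in those labelled -Dox. The day 7 mean ran the other way, between -0.09 and -0.03 in arrays labelled +Dox, against -0.01 and 0.09 in those labelled -Dox. The calls at day 9 are a share near that over all genes, and the list's median was 0.09. Of 13 surface epithelium and keratinocyte genes, 6 rose at day 9 and 4 at day 7 and none fell. Among those that rose were Krt7 (1.62 at day 9, 1.45 at day 7), Krt19 (1.40 at day 9, 0.98 at day 7) and Epcam (1.53 at day 9, 0.57 at day 7). The keratinocyte keratins Krt5 (0.02 at day 9, -0.15 at day 7) and Krt14 (0.12 at day 9, -0.12 at day 7) did not pass. The mean of the 13 genes lay between 0.36 and 0.54 in day 9 arrays labelled +Dox, against -0.39 and -0.16 in those labelled -Dox. At day 7 it lay between 0.25 and 0.37 in arrays labelled +Dox, against -0.06 and -0.05 in those labelled -Dox. The part of both lists in the values of Krtap17-1 and Islr was not tested. Of 12 podocyte and postsynaptic genes, 5 rose and 2 fell at day 9 and 2 rose at day 7. Podxl (1.15 at day 9, 0.50 at day 7), Camk2a, a postsynaptic kinase (0.89 at day 9, 1.23 at day 7), and Synpo, a partner of actin in podocytes and spines (1.24 at day 9), rose, while Nphs1, which defines the podocyte slit membrane, fell by 0.54 at day 9.

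Between the lines at day 7, 28.6% of all genes were called in arrays labelled -Dox (15.2% higher and 13.4% lower in rtTA-Dmrt5) and 24.6% in arrays labelled +Dox (13.7% higher and 10.9% lower). At day 7 Foxc2 lay below the parental line only in arrays labelled -Dox. The mean of the paraxial mesoderm and somite markers did so in both treatments. In arrays labelled -Dox, 6 of 15 markers were lower in rtTA-Dmrt5 and none higher, with a median of -0.52, against 0.02 for all genes. Those with the largest differences were Tbx6 (-1.41), Meox1 (-1.17), Mesp1 (-1.05) and Tcf15 (-0.84), transcription factors of presomitic mesoderm and somites. In arrays labelled +Dox, 3 were lower and 1 was higher. The mean of the list lay between 0.01 and 0.04 in day 7 rtTA-Dmrt5 arrays labelled +Dox, against 0.16 and 0.31 in parental ones, and at -0.13 and -0.12 in rtTA-Dmrt5 arrays labelled -Dox, against 0.21 and 0.40 in parental ones. At day 9 it lay between -0.24 and -0.19 with Dox and between -0.29 and -0.19 without, over members that went both ways. The Dox response of the list held 3 rises and 2 falls at each day, against 28.2% of all genes called at day 9 and 6.94% at day 7. At day 9 Meox1 rose by 1.99 (adjusted p = 6.2e-05 in limma), with a mean of -0.21 in arrays labelled +Dox and -2.19 in those labelled -Dox, Mesp1 rose by 0.66, and Uncx fell by 1.63. The part of these cells in the Foxc2 values was not tested.

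Of 15 markers of endothelium and pericytes, 3 were higher in rtTA-Dmrt5 and none lower in either treatment. This share is below that of all genes called in either direction (24.6% with Dox and 28.6% without). It is above that of all genes called higher (13.7% with Dox and 15.2% without). The list's median was 0.08 with Dox and -0.10 without, against 0.00 and 0.02 for all genes. The 3 higher markers were Sox17 (4.44 with Dox and 3.76 without), Tek (3.24 with Dox and 2.26 without) and Flt1 (2.37 with Dox and 2.01 without), and Sox17 also marks endoderm. The defining genes Pecam1, Cdh5, Kdr, Tie1 and Emcn had median log2 levels between 2 and 4 and did not pass. The list's mean lay between 0.11 and 0.15 in rtTA-Dmrt5 day 7 arrays labelled +Dox, against -0.55 and -0.52 in parental ones, and at 0.03 and 0.06 in those labelled -Dox, against -0.44 and -0.37 in parental ones. Of the 15, 4 rose and 1 fell at day 9 and 1 rose at day 7 in the Dox response. That response held calls for 28.2% of all genes at day 9 and 6.94% at day 7. Among the 12 neural progenitor markers, 1 rose and 4 fell at day 9 and 2 rose and 4 fell at day 7. Nes rose at both days (0.81 at day 9, 0.48 at day 7), and Notch1 rose at day 7 (0.52). Lower values were found for Pax6 (-1.45 at day 9, -0.71 at day 7), Sox2 (-0.36 at day 9, -0.70 at day 7) and Fabp7 (-1.78 at day 7). The part of these lists in the values of the members was not tested.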

How the data were processed

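RNA of 12 samples was measured on 3'-biased Affymetrix arrays. Per the labels' protocols, 5 ng of total RNA was amplified with the NuGEN Ovation V2 system and labelled with biotin. The deposited values, read here as log2, were made by the authors with RMA, per the submitters' processing notes. RMA gives that scale. Its version and the base are not stated there, nor is the centring that puts each probe set's median at 0 (within 5e-07). Level ranges were read from the single-precision spacing of the values, which gave the right range for 97.2% of 20000 simulated probe sets. Of 45101 probe sets, 64 controls were left out; 34945 had 1 symbol, 932 several and 9160 none, in an older annotation.

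All 12 arrays entered each fit (limma 3.58.1, R 4.3.3), which had 1 mean for each group, moderated tests (eBayes) and Benjamini-Hochberg adjustment at 0.05. Members were fitted among all 45037 probe sets (6 residual and 3.92 prior degrees of freedom), and lists and neighbours among 18193 genes, each averaged over the probe sets of its highest level range. In simulated data of the day 7 Dox response by gene, 83 of 100 changes of log2 size 1 and 30 of 100 of size 0.5 were called, as were 6 of 17993 unchanged genes. Depth does not apply to arrays, whose number limits precision. Named genes are the members, Dmrta2, the closest courses, the neighbours, and list genes that passed, with a few defining markers that did not. The members and lists were chosen with earlier results of these data known. Python 3.11.15, pandas 2.3.3 and matplotlib 3.10.9 were used for tables and plots. Alternatives were gene values, a filter on dim probe sets, repeated quantile normalization, array weights, a robust prior, arrays of 1 day, a replicate block and leaving out each array.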

Additional observations from a re-analysis of the deposited data

Results flagged for a closer look

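For 2 members the effects of a comparison ran in opposite directions, with every array of each group on its own side; these differences of effects were not tested, because the rtTA-Dmrt5 arrays chose the members. At day 7 Foxc2 differed between arrays labelled +Dox and -Dox by 2.58 in rtTA-Dmrt5 and by -0.48 in the parental line. Foxc2 also differed between rtTA-Dmrt5 and rtTA by 0.42 in arrays labelled +Dox and by -2.64 in those labelled -Dox. Krtap17-1 differed between day 9 and day 7 by 1.55 in arrays labelled +Dox and by -0.25 in those labelled -Dox. Arrays of the 2 parental groups were fully separated in 33.2% of all probe sets, so separation alone is common with 2 arrays a group.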

How the results depend on the processing

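Of 1427 recomputed member values, 93 moved by more than the spread between replicates and 1334 were counted as the same. Parental Dox differences were judged by their call alone, so some of the 1334 moved further. That of Islr, 0.40 with all arrays, ranged from -0.04 to 0.85. Repeated quantile normalization of the centred values, which gives every array the same distribution of differences, moved Pcp4 at day 7 to 4.11 (Dox) and -4.31 (lines without Dox), and Foxc2 to 3.59 and -3.60. Differences between day 9 and day 7 moved by over 1.5 times: with Dox to 0.94 (Krtap17-1), 0.67 (Islr), -1.18 and -0.70 (Rab37), -0.79 (Hlf 1434735_at) and -1.49 (Ddn), and without Dox to -1.02 (Foxc2) and 4.39 (Pcp4). These kept their direction. Of the other values, 673 of 5982 lost their call, and with all probe sets of a gene averaged 3 turned: Tef to 0.0902 (Dox, day 9), Cyp11a1 to 0.0229 (lines without Dox) and Pcp2 to 0.001 (lines with Dox). Member probe sets further from the parental line without Dox numbered 2, 3 with that normalization, and 2 to 3 when single arrays were left out. List genes called, leaving out single arrays, ranged from 19 to 47 for the day 7 Dox response (44 with all arrays), from 60 to 85 for day 9 (81), from 50 to 75 and from 59 to 79 for the lines without and with Dox, and were 0 in the parental line, as were the called members. The day 7 count was 21 or 19 without 1 of the arrays labelled +Dox and 23 or 20 without 1 of those labelled -Dox. Over all genes, fewer were also called without 1 of these day 7 arrays. Replicate numbers do not pair the arrays (correlations of replicate differences -0.06, 0.14 and 0.03 in rtTA-Dmrt5 day 7, rtTA-Dmrt5 day 9 and rtTA). With a replicate block 32 list genes were called at day 7 and 79 at day 9, against 911 and 4678 of all 18193 genes. The filter on dim probe sets left out Krtap17-1 and 1450167_at of Rab37, which have no value there.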
